A study of Homo sapiens with 5 samples.

Results

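This comparison sets a library labelled as a knockdown of HNRNPC against the study's negative control, gene by gene, in MDA-MB-231 cells. Genes were taken when both deposited tables list them with a mean of at least 1 FPKM, which held for 10247 of the 12497 gene rows in the series. FPKM counts fragments per kilobase of transcript relative to all mapped fragments, a level scaled to transcript length and library total. The change of a gene is log2((FPKM + 1)/(si-NC FPKM + 1)), a scale that understates the changes of genes at low levels. A gene is said to have risen or fallen when it differed at least 2-fold on this scale. That is a rule of size and not a test, because each side has 1 library and no difference here has a replicate check.

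MDA-MB-231 is a triple-negative human breast cancer line of basal and mesenchymal character, grown here in L15 medium with serum, and all 5 libraries of the series came from it. The si-NC library is the negative control of the LY6E-DT silencing arm, and no control made for the HNRNPC arm was analysed here. The library labelled si-HNRNPC came, by its label, from cells transfected with an siRNA against HNRNPC. The treatment text of the labels swaps the siRNAs between the 2 targets, so the sample labels were followed. The 3 other libraries, used beside the comparison, are si-LY6E-DT (cells given a Smart Silencer against the long noncoding RNA LY6E-DT), the input of an RNA immunoprecipitation (RIP), called the input RNA below, and the HNRNPC immunoprecipitate.

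HNRNPC is an abundant nuclear protein that binds runs of uridine in nascent transcripts, packages them into ribonucleoprotein particles and competes with splicing factors for sites within introns. In breast cancer cells its depletion is known for exposing double-stranded RNA from intronic repeats, which RNA sensors read as a sign of viral infection and answer with interferon genes. It also reads RNA made accessible by m6A methylation and helps sort transcripts by length for export from the nucleus.

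The knockdown named by the label was not seen in the HNRNPC mRNA. HNRNPC, with the identifier ENSG00000092199.17_4, a protein-coding gene on the minus strand of chromosome 14 (21209136 to 21269494, GRCh38), was at 52.2 FPKM in si-NC and 40.1 in si-LY6E-DT, against 48.8 in the library labelled si-HNRNPC. It was 67.4 FPKM in the input RNA and 58.4 FPKM in what the antibody recovered. The level in the library labelled si-HNRNPC was 6.52% below si-NC and above that of si-LY6E-DT, where HNRNPC was not the target. Its log2 change was −0.095, and 90.6% of the genes tested differed from si-NC at least as much. Each direction given below is therefore that of a library labelled si-HNRNPC, in which HNRNPC mRNA was near its control level. HNRNPC protein was not measured here.

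The libraries differed from si-NC to unlike degrees. Against si-NC, 174 of 10473 genes were at least 2-fold higher (1.66%) and 93 lower (0.888%) in si-LY6E-DT, a neighbour from the same arm. In the library labelled si-HNRNPC 1275 of 10247 genes rose (12.4%) and 967 fell (9.44%). In the input RNA, whose label names no knockdown, 1068 of 10264 genes were higher (10.4%) and 1457 lower (14.2%) than in si-NC. The library labelled si-HNRNPC set against that input had 928 higher and 410 lower genes of 10185. By these counts the labelled library and the input were less alike than si-LY6E-DT and si-NC. All of these comparisons with si-NC share that library, and an effect of the siRNA, of the culture and of library preparation cannot be told apart in the library labelled si-HNRNPC. The values in the input RNA are therefore given beside the results. The tables listed between 11306 and 11755 genes, their FPKM summed to between 157407 and 272563, and how deeply each was sequenced is unknown. Mitochondrially encoded mRNAs took 7.20% of the sum in si-NC, 9.92% in the library labelled si-HNRNPC and 29.8% in the input RNA.

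**Figure D1:**
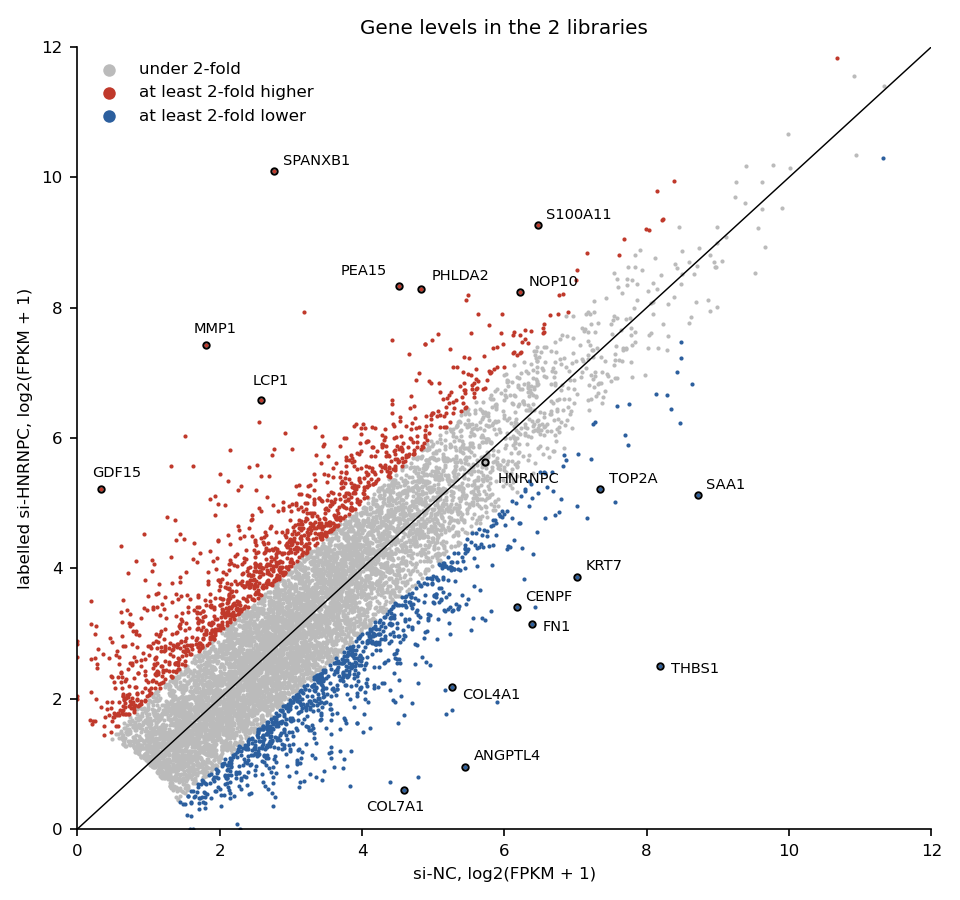
Level of the genes tested and reported in si-NC (horizontal) and in the library labelled si-HNRNPC (vertical), both as log2(FPKM + 1), with genes at least 2-fold higher in red and lower in blue. HNRNPC lies beside the line of equal level, while THBS1 lies far below it and SPANXB1 far above.

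The median change of all genes tested was 0.04 on the log2 scale, with quartiles of −0.48 and 0.597. At 4-fold 176 genes rose and 98 fell, at 8-fold 32 rose and 16 fell, and at 16-fold 7 rose and 3 fell. Of the changed genes 56.9% were higher. Scaling moved this split. It was 41.6% after rescaling both libraries to the genes that are neither mitochondrial, ribosomal protein nor among the 20 highest, which shifted the median of all genes from 0.04 to −0.12, and 50.05% after quantile normalization. With a pseudocount of 5 it was 65.6%, and with the input RNA as control it was 69.4%. Just inside the 2-fold limit lay ALG3 (log2 1.0004) and NUDT21 (1.001) and, on the other side, ARID4A (−1.0007) and MDC1 (−1.0014). PFDN2 (log2 0.998), ULBP2 (0.997), HP1BP3 (−0.999) and RPL7 (−0.999) lay just outside it. Of the genes tested 1148 share exons with a coding neighbour of the same strand, 280 of them changed, and the reads of such genes may have been divided between gene models; those named below are marked as uncertain.

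In what follows a gene's values written from one level to another, or as a pair, run from si-NC to the library labelled si-HNRNPC, and a median of a list is on the log2 scale, against 0.04 for all genes tested. The response known for HNRNPC loss was looked at first. Of 28 measured genes of double-stranded RNA sensing and interferon response, 9 rose (32.1%) and 3 fell (10.7%), against 12.4% and 9.44% of all genes tested. Their median was 0.36, and 0.01 in the input RNA against si-NC. The list has 42 genes, of which 35 are listed for si-NC and 31 for the labelled library. The 12 not listed for both are outside these counts. ISG15, a ubiquitin-like protein induced by interferon, was at 39.3 FPKM in si-NC and 36.00 in si-LY6E-DT, with 41.9 in the input RNA and 135 in the library labelled si-HNRNPC (log2 1.76). It was high in the labelled library alone. IFIT1, which binds foreign RNA at its cap, was at 3.08, 2.97 and 2.19 FPKM in the same 3 libraries and at 8.04 in the labelled one (log2 1.15). IFIT3, its partner, rose from 14.3 to 44.98 FPKM (log2 1.59), and IFI44 rose from 3.08 to 8.98 FPKM (log2 1.29); in the input RNA they stood at 30.97 and 5.02 FPKM. The antiviral membrane proteins moved as well. IFITM3 rose from 60.7 to 194 FPKM (log2 1.66), and IFITM2 from 3.79 to 35.9 FPKM (log2 2.94) and IFITM1 from 6.88 to 15.5 FPKM (log2 1.06), both uncertain because they share exons and have near-identical relatives. All 3 were higher still in the input RNA, at 278, 71.2 and 90.6 FPKM. Other genes of the list went down. OAS3, which makes the 2-5A messenger that activates RNase L, fell from 3.61 to 0.425 FPKM (log2 −1.695), and IFIH1, the sensor of long double-stranded RNA, fell from 2.37 to 0.411 FPKM (log2 −1.26). ADAR, which edits double-stranded RNA (from 20.8 to 20.5 FPKM, log2 −0.02), MAVS, the adaptor of the RNA sensors (from 12.5 to 14.3 FPKM, log2 0.19), and IRF3, the factor they activate (from 11.1 to 10.4 FPKM, log2 −0.08), did not reach 2-fold. BST2, an interferon-induced tether of virus particles, was at 73.2 FPKM in si-NC and 72.98 in si-LY6E-DT, was at 3.61 in the input RNA and is not listed for the library labelled si-HNRNPC.

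Of 17 measured relatives of HNRNPC and proteins that compete with it for U-rich RNA, 13 did not reach 2-fold. None rose and 4 fell (23.5%), against 12.4% and 9.44% of all genes tested. The median was 0.18, or −0.01 after rescaling. RBM39, a splicing factor related to U2AF2, fell from 26.2 to 9.06 FPKM (log2 −1.43), and PTBP3, a relative of the polypyrimidine tract binding protein, fell from 11.5 to 5.14 FPKM (log2 −1.02). MATR3 (from 13.7 to 4.21 FPKM, log2 −1.502) and TIA1 (from 6.31 to 2.53 FPKM, log2 −1.05), which bind pyrimidine-rich and U-rich RNA, also fell but share exons with other genes. HNRNPA1 (from 158 to 112 FPKM, log2 −0.49), HNRNPK (from 90.9 to 158 FPKM, log2 0.79) and HNRNPA2B1 (from 145 to 85.00 FPKM, log2 −0.76), major packaging proteins of pre-mRNA, did not reach 2-fold. Of 13 mRNAs linked to HNRNPC by earlier work none rose or fell, and their median was −0.04. Among them APP, whose mRNA HNRNPC is known to bind, was at 71.3 and 46.02 FPKM (log2 −0.62), MYC at 34.9 and 45.8 FPKM (log2 0.38) and HIF1A at 62.4 and 37.3 FPKM (log2 −0.73).

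Lists of other steps of RNA handling changed in shares near or below those of all genes tested, of which 12.4% rose and 9.44% fell. Of 57 core spliceosome genes 6 rose and 4 fell, and the median of 0.104 turned to −0.09 after rescaling and −0.10 after quantile normalization. SF3B5, a small subunit of the SF3b complex, rose from 43.9 to 293 FPKM (log2 2.71), LSM4, of the ring that binds U6 RNA, rose from 22.2 to 79.5 FPKM (log2 1.796), and the helicase DHX15, which takes spent spliceosomes apart, fell from 37.6 to 9.18 FPKM (log2 −1.92). In the input RNA the levels were 107 FPKM for SF3B5, 44.7 for LSM4 and 9.34 for DHX15. Of 20 export genes 1 rose and 2 fell, and the median of 0.11 turned to −0.08 after rescaling and −0.04 after quantile normalization. NXT1, the partner of the export receptor NXF1, rose from 21.1 to 53.1 FPKM (log2 1.29), and RAE1, which joins export to the nuclear pore, fell from 10.8 to 2.19 FPKM (log2 −1.89). The RIP input held RAE1 at 14.8 FPKM and NXT1 at 25.1, both near si-NC. Of 21 genes of nonsense-mediated decay and the exosome 2 rose and 1 fell (median −0.13). The risers, both of the exosome, were EXOSC1 (from 6.52 to 17.9 FPKM, log2 1.33) and EXOSC4 (from 19.7 to 41.7 FPKM, log2 1.05), and the one that fell was SMG1 (from 7.72 to 3.35 FPKM, log2 −1.003), the kinase of the decay factor UPF1. Of 20 m6A genes, HNRNPC and HNRNPA2B1 among them, 2 rose and 1 fell, and the median of 0.07 turned to −0.11 after rescaling and −0.06 after quantile normalization. ALKBH5, an eraser of the mark, rose from 24.5 to 62.9 FPKM (log2 1.33), the reader YTHDF3 rose from 1.89 to 7.93 FPKM (log2 1.63), and CBLL1, of the writer complex, fell from 6.01 to 1.64 FPKM (log2 −1.41). The hnRNP family gave 2 higher and 1 lower of 25 (median −0.12). PCBP1, a poly(C) binding protein, rose from 91.9 to 204 FPKM (log2 1.14), HNRNPH1, which binds G-rich RNA, fell from 40.5 to 14.8 FPKM (log2 −1.39), and HNRNPH2 rose from 9.205 to 52.3 FPKM (log2 2.38) but shares exons.

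The largest fall and the largest rise among genes with a mean of at least 5 FPKM were those of THBS1 and SPANXB1. THBS1 (chromosome 15, 39581079 to 39599466, plus strand, GRCh38), a matrix protein that restrains blood vessels and frees TGF-beta, was at 291 FPKM in si-NC and 437 in si-LY6E-DT, with 4.64 in the library labelled si-HNRNPC and 6.42 in the input RNA, and 23.4 in the immunoprecipitate (log2 −5.69 against si-NC). The libraries of the silencing arm were high and the other 3 low. SPANXB1 (X chromosome, 141002591 to 141003706, plus strand, GRCh38), a sperm protein also made by some tumours, was at 5.81 and 7.28 FPKM in si-NC and si-LY6E-DT and at 1094 and 1579.8 in the library labelled si-HNRNPC and the input RNA (log2 7.33). It is uncertain because the SPANX genes are near-identical copies. Here too the silencing arm stood on one side and the input RNA beside the labelled library on the other.

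Of the 25 largest rises that share no exons 23 were also at least 2-fold higher in the input RNA than in si-NC, and PEA15 and RAB31 were not. Over all genes tested in the input that share was 10.4%. Both comparisons use the same si-NC value, and a low si-NC reading alone would raise a gene in both. The count is therefore no separate check of these rises. PEA15, a phosphoprotein that holds ERK in the cytoplasm, was at 21.99 FPKM in si-NC and 34.6 in si-LY6E-DT, with 25.7 in the input and 323 in the library labelled si-HNRNPC (log2 3.82). RAB31, a GTPase of endosome traffic, was at 1.06, 7.57, 1.93 and 16.5 FPKM in the same order (log2 3.08), so that si-LY6E-DT lay between. PHLDA2, an imprinted growth regulator, was at 27.5, 34.1, 104 and 312 FPKM (log2 3.46), with the input between the control and the labelled library. The 23 others differed in how near the input lay to the labelled library. EMP1, an epithelial membrane protein, rose from 1.86 to 64.2 FPKM (log2 4.51) and was at 86.5 in the input. APBB1IP, which links Rap1 to integrins, rose from 3.41 to 55.4 FPKM (log2 3.68) and was at 57.3 there, and LY96, the co-receptor of TLR4, rose from 1.41 to 26.7 FPKM (log2 3.53) and was at 19.5. LCP1, which bundles actin in leukocytes, and KCNAB2, a potassium channel subunit, were lower in the input than in the labelled library, at 36.4 against 95.4 FPKM and at 5.32 against 19.4, though above si-NC. HMGN5, a nucleosome binding protein, rose from 0.771 to 16.3 FPKM (log2 3.28) and was at 42.04. Of the 25 largest falls 24 were tested in the input RNA and all 24 were lower there, against 14.2% of all genes. The si-NC value is shared in the same way. Among the falls, KRT81, a hair keratin, went from 13.3 to 0.578 FPKM (log2 −3.18) with 1.28 FPKM in the input. LIMCH1, which activates nonmuscle myosin, went from 34.8 to 3.41 FPKM (log2 −3.02) with 2.28. NOTCH2, a receptor of cell-cell signalling, fell from 21.8 to 2.101 FPKM (log2 −2.88) and was at 6.34 in the input, and NNMT, which methylates nicotinamide, fell from 58.7 to 2.85 FPKM (log2 −3.96) and was at 8.86.

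**Figure D2:**
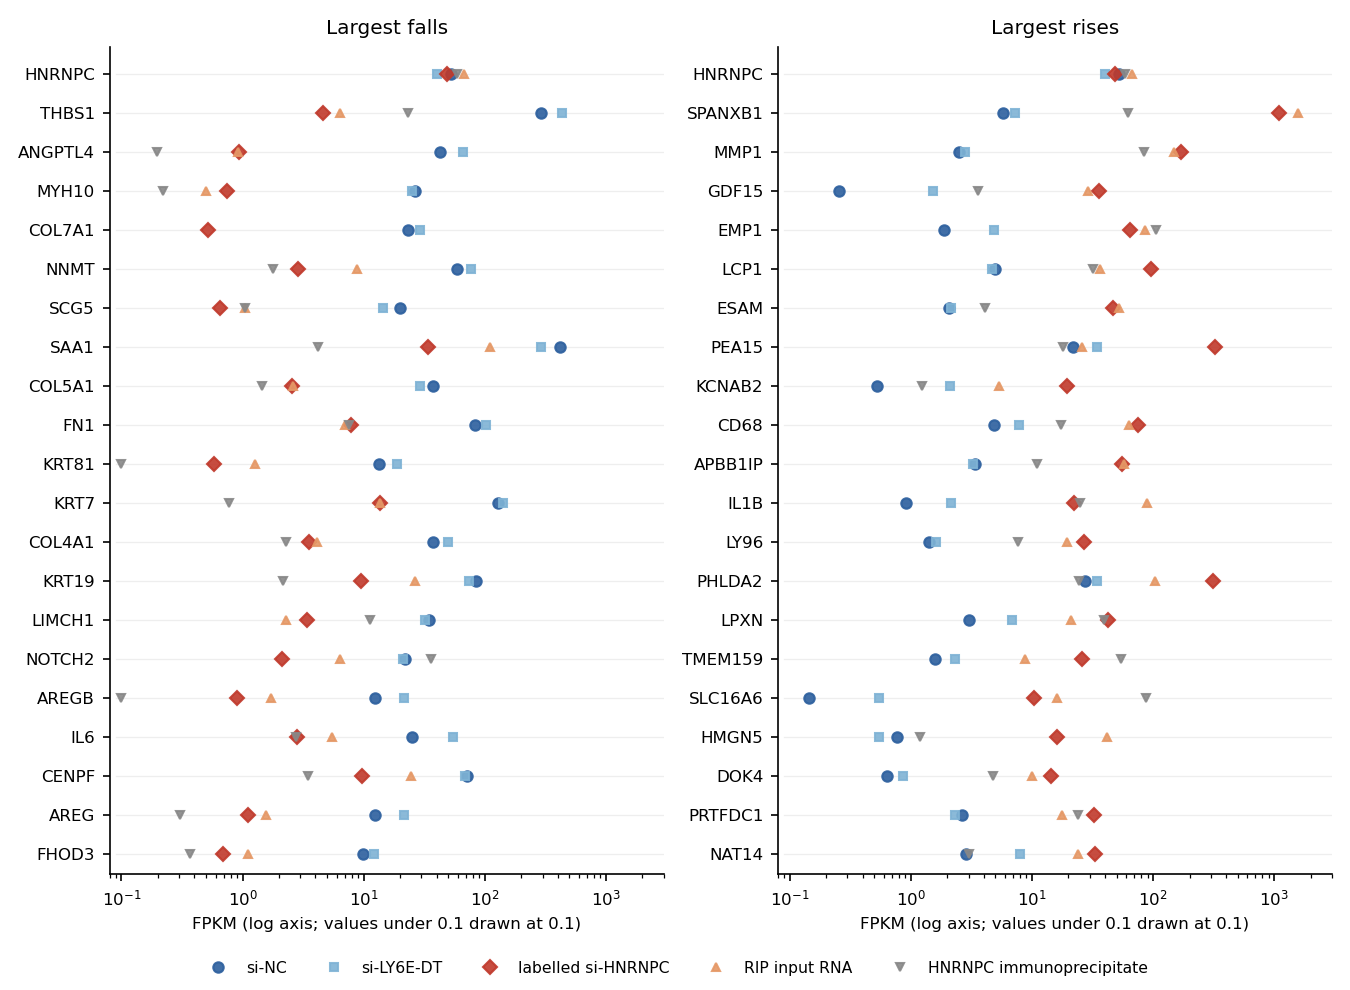
FPKM (log axis) in each of the 5 libraries for HNRNPC and for the genes with the largest falls (left) and rises (right) when the library labelled si-HNRNPC was set against si-NC, 1 marker per library; a missing marker means that the gene is not listed there. For HNRNPC all 5 markers lie between 40.1 and 67.4 FPKM, while for THBS1 the 2 silencing-arm libraries lie at 291 FPKM or above and the others at 23.4 or below.

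Matrix genes were lower, 48.6% of those measured falling and 2.70% rising against 9.44% and 12.4% of all genes tested. Of 37 measured collagens, laminins and other matrix proteins 18 fell and 1 rose, with a median of −0.95; the median of the list was −0.51 in the input RNA against si-NC, and 0.13 in si-LY6E-DT. With the input RNA as control the list had a median of −0.16. FN1, fibronectin, fell from 82.7 to 7.82 FPKM (log2 −3.25), and HSPG2, perlecan, a basement membrane proteoglycan, fell from 16.2 to 1.94 FPKM (log2 −2.55). The chains of type IV collagen, the network of basement membranes, fell together, COL4A1 from 37.5 to 3.54 FPKM (log2 −3.09) and COL4A2 from 74.8 to 18.8 FPKM (log2 −1.94). In the input FN1 was at 6.97 FPKM, HSPG2 at 2.09, COL4A1 at 4.11 and COL4A2 at 12.8. COL12A1, which coats collagen fibrils, fell from 27.8 to 5.26 FPKM (log2 −2.201), COL18A1, the source of endostatin, fell from 21.4 to 5.102 FPKM (log2 −1.88), and agrin (AGRN) fell from 33.4 to 10.6 FPKM (log2 −1.57). The matricellular genes CYR61 (from 385 to 217 FPKM, log2 −0.83) and CTGF (from 98.7 to 81.3 FPKM, log2 −0.28) did not reach 2-fold. The measured members of this list have a median transcript length of 5674 bases, against 3021 for all genes tested, and a median GC content of 55.4%, against 49.0%. With all genes in 3 bins of length and 3 of GC content, long transcripts had a median of 0.032 at high GC content and −0.41 at low. The part of length and GC content in the lower matrix values was not tested.

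Proteases moved in both directions, 42.3% rising and 15.4% falling against 12.4% and 9.44% of all genes tested. Of 26 measured proteases and inhibitors 11 rose and 4 fell, with a median of 0.22, or 0.05 after rescaling. MMP1, the interstitial collagenase, was at 2.498 FPKM in si-NC and 2.78 in si-LY6E-DT, with 170.4 in the library labelled si-HNRNPC and 149.9 in the input RNA (log2 5.62). Of the cathepsins in the list CTSB rose from 7.12 to 55.98 FPKM (log2 2.81) and CTSL from 42.3 to 106 FPKM (log2 1.31), as did CTSD from 68.6 to 190.4 FPKM (log2 1.46), which shares exons, while CTSZ, the most abundant in si-NC, was at 158 and 103 FPKM (log2 −0.61). TIMP3, an inhibitor of metalloproteases bound to the matrix, rose from 10.8 to 34.9 FPKM (log2 1.61). The sheddases that release growth factors from the cell surface were split, ADAM8 rising from 4.34 to 23.5 FPKM (log2 2.197) while ADAM9 fell from 76.8 to 13.2 FPKM (log2 −2.45) and ADAM10 from 13.9 to 4.94 FPKM (log2 −1.33). Urokinase (PLAU), the activator of plasmin, was at 125 and 107 FPKM (log2 −0.23) and did not reach 2-fold.

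Adhesion and cytoskeleton genes were divided as well, while of all genes tested 12.4% rose and 9.44% fell. Of 31 integrin and adhesion genes 3 rose and 9 fell (median −0.23; −0.49 in the input RNA against si-NC). ITGAV, a subunit of vitronectin receptors, fell from 31.1 to 10.2 FPKM (log2 −1.52), and ITGA3, of a laminin receptor, fell from 96.3 to 37.04 FPKM (log2 −1.35). ITGB1, the common partner of many of them, was at 217 and 229 FPKM (log2 0.08). The tetraspanins CD9 and CD151, which organise integrins in the membrane, rose from 9.79 to 64.6 FPKM (log2 2.604) and from 26.8 to 70.7 FPKM (log2 1.37). DAG1, dystroglycan, showed another pattern, with 1.34 FPKM in si-NC and 13.7 in si-LY6E-DT, with 10.9 in the library labelled si-HNRNPC and 0.223 in the input RNA, so that its rise (log2 2.34) rests on a low si-NC value. Of 46 actin, myosin and tubulin genes 9 rose (19.6%) and 8 fell (17.4%). Their median of 0.27 was 0.08 after rescaling and 0.05 after quantile normalization. FSCN1, fascin, which bundles actin in protrusions, rose from 2.95 to 30.6 FPKM (log2 3.0003). Nonmuscle myosin heavy chains fell, MYH9 from 323 to 85.8 FPKM (log2 −1.902) and MYH10 from 26.6 to 0.738 FPKM (log2 −3.99), while the light chain MYL12A rose from 44.5 to 149 FPKM (log2 1.72). Caldesmon (CALD1) fell from 32.4 to 6.54 FPKM (log2 −2.15) and tropomyosin TPM1 from 13.7 to 3.96 FPKM (log2 −1.57), and actin itself (ACTB) was at 789 and 727 FPKM (log2 −0.12).

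Signals and their receptors changed in sets, read beside the 12.4% of all genes tested that rose and the 9.44% that fell. Of 11 measured genes of the EGF receptor family 4 fell and none rose (median −0.46). The ligands AREG and TGFA fell from 12.5 to 1.11 FPKM (log2 −2.67) and from 15.1 to 1.81 FPKM (log2 −2.52), as did the receptor EGFR, from 25.02 to 11.3 FPKM (log2 −1.08), and its inhibitor LRIG1, from 6.49 to 2.42 FPKM (log2 −1.13). AREGB, which these tables list as a separate row at 12.3 and 0.907 FPKM, is a near-identical copy of AREG, so both are uncertain. Of 29 outputs and feedback genes of the ERK pathway 7 rose and 1 fell (median 0.38). DUSP4 and DUSP5, nuclear phosphatases that switch ERK off, rose from 6.56 to 66.2 FPKM (log2 3.15) and from 9.17 to 70.97 FPKM (log2 2.82), and MAPK3, ERK1 itself, rose from 3.72 to 17.6 FPKM (log2 1.98). In the input RNA these stood at 81.2, 90.95 and 19.5 FPKM. BRAF, a kinase upstream of ERK, fell from 4.79 to 1.89 FPKM (log2 −1.002). Of 35 cytokine genes and receptors 8 rose and 8 fell, and the median of 0.102 turned to −0.04 after quantile normalization and −0.08 after rescaling. IL1B rose from 0.917 to 22.1 FPKM (log2 3.59) and IL18 from 2.08 to 16.7 FPKM (log2 2.52), both processed by caspase-1, and the stress cytokine GDF15 rose from 0.257 to 36.1 FPKM (log2 4.88). IL6 fell from 25.1 to 2.83 FPKM (log2 −2.77), CXCL8, which draws neutrophils, from 49.4 to 11.7 FPKM (log2 −1.99), and CSF2, which drives granulocytes and macrophages, from 66.7 to 19.2 FPKM (log2 −1.75). The granulocyte factor CSF3 went the other way, from 2.94 to 20.7 FPKM (log2 2.46). In the input IL1B was at 89.4 FPKM, IL6 at 5.43 and CSF2 at 8.11.

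Targets of YAP/TAZ and TGF-beta were lower in 10 of 38 cases and higher in 3 (median −0.33; −0.67 in the input RNA against si-NC). SKIL, a brake on SMAD signals, fell from 7.64 to 0.572 FPKM (log2 −2.46), the ligand TGFB2 fell from 34.6 to 9.32 FPKM (log2 −1.79), and F3, tissue factor, fell from 129 to 29.9 FPKM (log2 −2.07). The most abundant members not at 2-fold were ANKRD1 (from 239.99 to 471 FPKM, log2 0.97), CYR61, given above, and the receptor kinase AXL (from 266 to 194 FPKM, log2 −0.45). ID1, a target of BMP signals, rose from 55.3 to 128 FPKM (log2 1.196). Hypoxia genes followed a like pattern with 7 of 25 lower and 2 higher (median −0.28). Both lists stand beside 9.44% of all genes tested lower and 12.4% higher. EPAS1, the factor HIF-2 alpha, fell from 10.8 to 1.12 FPKM (log2 −2.48), VEGFA fell from 11.6 to 3.65 FPKM (log2 −1.43) and ADM, adrenomedullin, from 23.3 to 8.19 FPKM (log2 −1.401). CA9, carbonic anhydrase of hypoxic tumours, was at 51.8 FPKM in si-NC and 54.4 in si-LY6E-DT, was at 1.49 in the input RNA, and is not listed for the library labelled si-HNRNPC.

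Genes that build the spindle and separate chromosomes were lower, 44.7% of those measured falling against 9.44% of all genes tested. Of all genes tested 12.4% rose. Of 76 measured members 34 fell and none rose, with a median of −0.93; the list's median was −0.78 in the input RNA against si-NC and −0.0029 with that input as control. CENPF, a kinetochore protein of G2 and mitosis, was at 71.1 FPKM in si-NC and 68.3 in si-LY6E-DT, with 24.7 in the input RNA and 9.61 in the library labelled si-HNRNPC (log2 −2.77). The input lay between the silencing arm and the labelled library. KIF4A, a motor that condenses chromosomes and sets the central spindle, fell from 51.8 to 8.23 FPKM (log2 −2.52), KIF20B, needed for cytokinesis, fell from 46.1 to 8.47 FPKM (log2 −2.31), and CENPE, the kinetochore motor, fell from 20.98 to 2.86 FPKM (log2 −2.51). TOP2A, which untangles sister DNA, fell from 162 to 36.1 FPKM (log2 −2.14), and ASPM, of the spindle poles, fell from 26.3 to 6.06 FPKM (log2 −1.95). Other abundant members did not reach 2-fold. Cyclin B1 (CCNB1) was at 122 and 84.6 FPKM (log2 −0.52), securin (PTTG1) at 80.7 and 77.2 FPKM (log2 −0.06) and the spindle assembly factor TPX2 at 156 and 98.8 FPKM (log2 −0.65). In bulk RNA a smaller share of dividing cells and less mRNA per cell cannot be told apart. The measured members have a median transcript length of 3538 bases, close to the 3021 of all genes tested, and a median GC content of 41.8% against 49.0%.

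Promoters of these genes are known for the cell cycle homology region, TTTGAA, read by the DREAM and MuvB complexes that hold late cell cycle genes silent in resting cells. The promoters below, from 250 bases before to 50 after the start in RefSeq (GRCh38.p14), were cut to 100 bases around the match and show where this element lies in 4 of the genes that fell. Each is on its gene's strand, 5′ to 3′, and capitals mark TTTGAA, alone or in a direct repeat.
CENPF, chr1:214603145-214603244, plus strand: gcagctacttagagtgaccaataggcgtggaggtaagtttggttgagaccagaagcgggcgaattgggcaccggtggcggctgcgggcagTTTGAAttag
KIF4A, chrX:70290025-70290124, plus strand: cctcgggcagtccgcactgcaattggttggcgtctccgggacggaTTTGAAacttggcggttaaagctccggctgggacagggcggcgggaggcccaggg
KIF20B, chr10:89701540-89701639, plus strand: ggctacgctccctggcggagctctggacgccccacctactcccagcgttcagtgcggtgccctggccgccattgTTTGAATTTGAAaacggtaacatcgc
HMMR, chr5:163460559-163460658, plus strand: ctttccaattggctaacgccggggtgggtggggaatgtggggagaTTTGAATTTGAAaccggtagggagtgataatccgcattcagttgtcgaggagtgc
CENPF, KIF4A and HMMR, the hyaluronan receptor that also binds spindle microtubules (from 6.88 to 0.765 FPKM, log2 −2.16), carry a CCAAT box or its complement in the same window as well. TTTGAA on either strand, written TTCAAA when read from the other, was in 9.18% of the 8417 promoters matched among the genes tested and in 15.4% of all 27305 promoters in the RefSeq table. It was in 42 of the 67 matched promoters of the spindle list, in 25 of the 32 of members that fell, and in 2 of 50 of the replication list. These are matches of letters and say nothing of binding in these cells.

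Smaller shares of replication and repair genes fell, 13.8% and 16.3%, against 9.44% of all genes tested. Of 58 replication genes 4 rose and 8 fell, and the median of 0.09 turned to −0.10 after rescaling and −0.08 after quantile normalization. POLA1, the catalytic subunit of the priming polymerase, fell from 15.3 to 2.41 FPKM (log2 −2.25), MCM6, of the replicative helicase, fell from 49.2 to 19.1 FPKM (log2 −1.32), and GINS3, which joins that helicase, rose from 2.21 to 16.2 FPKM (log2 2.42). PCNA, the sliding clamp, was at 165 and 92.4 FPKM (log2 −0.83). Of 49 repair genes 8 fell and none rose (median −0.35; −0.52 in the input RNA against si-NC). MSH6, of mismatch recognition, fell from 14.2 to 3.65 FPKM (log2 −1.71) and FANCD2, of crosslink repair, from 9.36 to 2.74 FPKM (log2 −1.47). PRKDC, the end-joining kinase, fell from 47.8 to 22.4 FPKM (log2 −1.06), while its DNA-binding partners XRCC5 (from 77.2 to 64.8 FPKM, log2 −0.25) and XRCC6 (from 139.8 to 203 FPKM, log2 0.53) did not reach 2-fold. Histone genes were higher, with 10 of 20 measured of the 57 listed rising and none falling (median 0.96; 0.79 in the input RNA against si-NC). The median of this list was 1.96 when a mean of at least 5 FPKM was asked for. HIST1H2BK rose from 42.96 to 276 FPKM (log2 2.65) and HIST1H2BD from 1.61 to 20.7 FPKM (log2 3.06), both core histones H2B, while HIST1H1C, a linker histone, was at 36.6 and 58.9 FPKM (log2 0.67). Histone genes are near-identical copies, their values are uncertain, and the 37 members not measured are not covered by these counts.

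**Figure D3:**
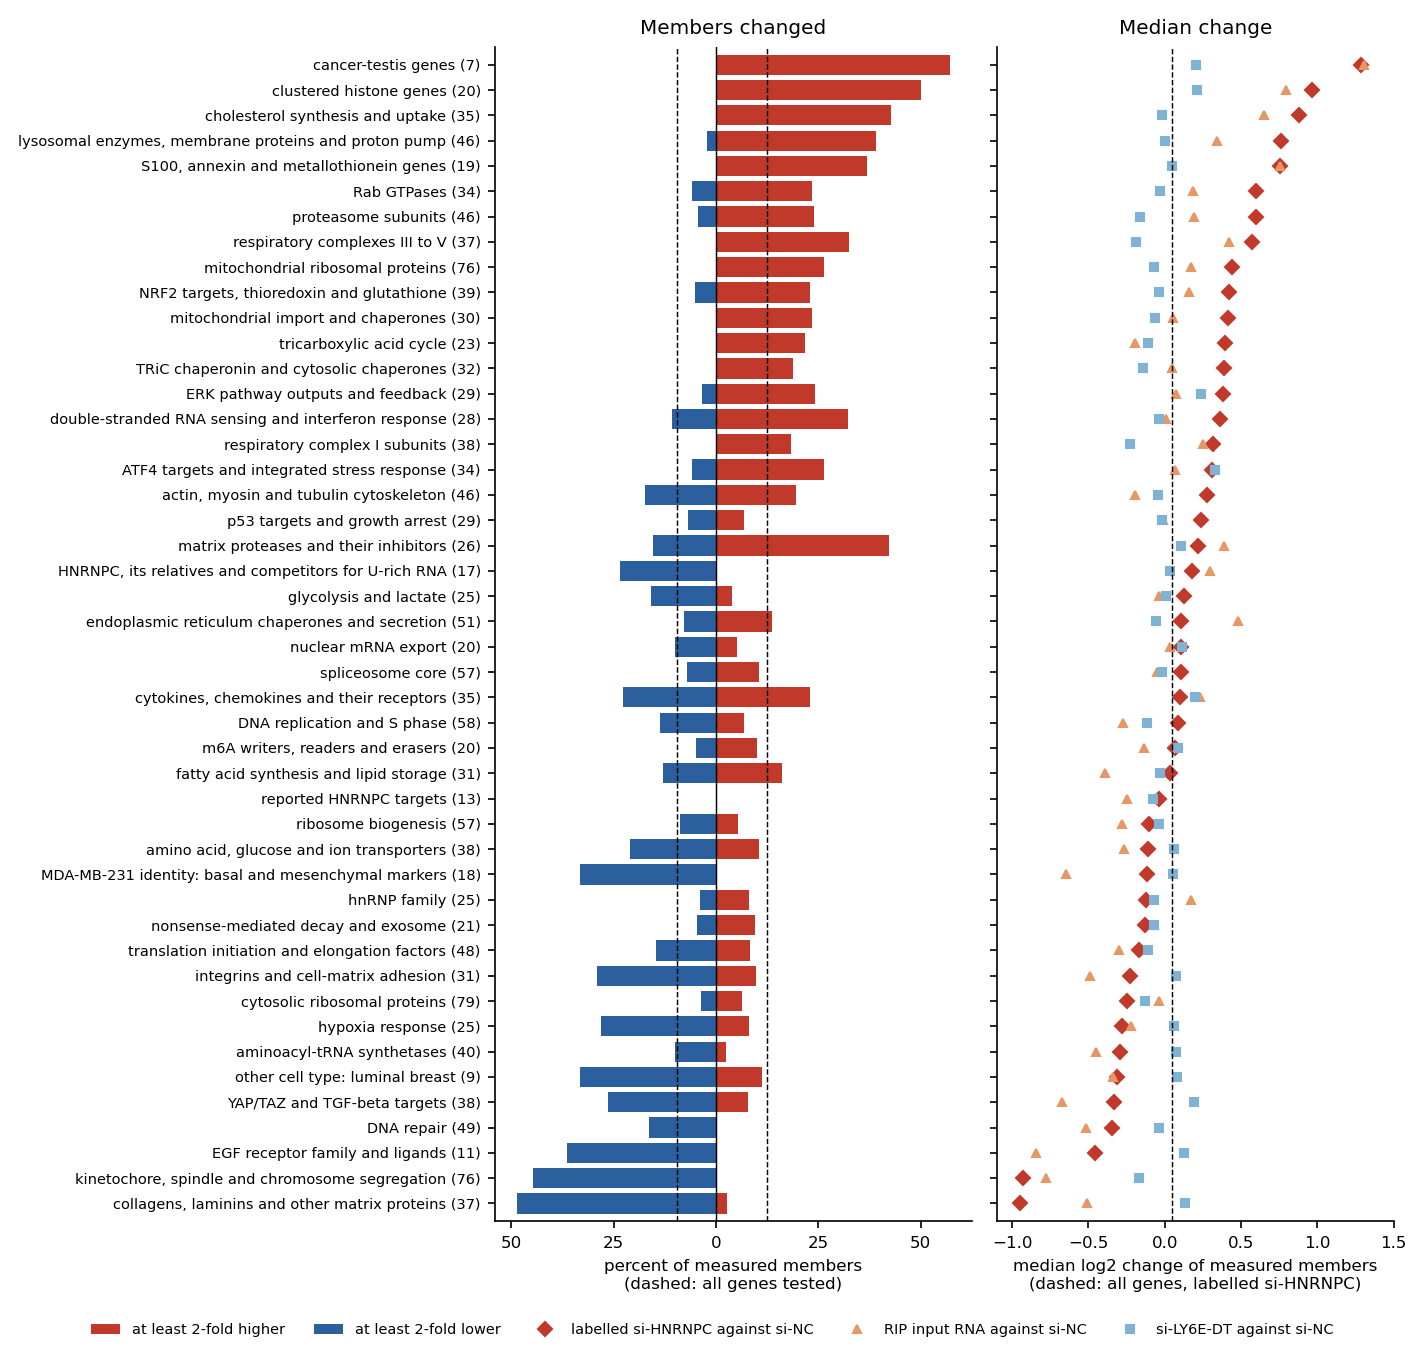
Left, percent of the measured members of each gene list (number in brackets; lists with at least 7) that were at least 2-fold higher (red) or lower (blue) in the library labelled si-HNRNPC than in si-NC, with dashed lines at the 12.4% and 9.44% of all genes tested. Right, median log2 change of the same lists against si-NC in the library labelled si-HNRNPC (diamonds), the input RNA (triangles) and si-LY6E-DT (squares); cholesterol, lysosome and histone genes lie at the high end and matrix and spindle genes at the low end.

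Cholesterol genes were higher, 42.9% of those measured rising and none falling against 12.4% and 9.44% of all genes tested. Of 35 measured members 15 rose and none fell, with a median of 0.88, 0.65 in the input RNA against si-NC and −0.02 in si-LY6E-DT. HMGCS1, which makes HMG-CoA at the entry of the pathway, was at 7.197 FPKM in si-NC and 8.67 in si-LY6E-DT, with 27.3 in the input RNA and 23.8 in the library labelled si-HNRNPC (log2 1.598). The silencing arm was low and the other libraries high. IDI1, the isomerase of isoprenoid units, rose from 19.1 to 63.4 FPKM (log2 1.68), and enzymes of the late steps rose too, NSDHL from 9.05 to 31.4 FPKM (log2 1.69) and DHCR7 from 11.1 to 34.7 FPKM (log2 1.56). NPC2, which moves cholesterol out of lysosomes, was at 44.04 and 43.7 FPKM (log2 −0.01). The measured members have a median GC content of 52.1%. Fatty acid genes did not move as one, with 5 of 31 higher and 4 lower, and the median of 0.03 turned to −0.14 after rescaling and −0.07 after quantile normalization. The desaturases SCD and FADS1 rose from 26.8 to 126 FPKM (log2 2.195) and from 8.05 to 23.7 FPKM (log2 1.45), while CPT1A, which admits fatty acids to mitochondria, fell from 36.1 to 9.34 FPKM (log2 −1.84) and PLIN2, which coats lipid droplets, fell from 65.5 to 19.3 FPKM (log2 −1.71). ANGPTL4, an inhibitor of lipoprotein lipase, fell from 42.7 to 0.941 FPKM (log2 −4.49).

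Lists of mitochondrial energy genes held rises and no falls, while 12.4% of all genes tested rose and 9.44% fell. Median transcript lengths were 864.5 bases in complex I, 916 in complexes III to V and 1378.5 in mitochondrial ribosomal proteins. They were 1838.5 in import and 2390 in the tricarboxylic acid cycle, against 3021 for all genes tested. Of all genes with 207 to 1203 bases 25.5% rose and 5.30% fell (median 0.45). The part of length in these rises was not tested. Of 37 subunits of respiratory complexes III to V 12 rose and none fell (median 0.57; 0.42 in the input RNA against si-NC), and of 38 subunits of complex I 7 rose and none fell (median 0.32). The ATP synthase subunits ATP5G1 and ATP5B rose from 13.5 to 50.5 FPKM (log2 1.83) and from 98.7 to 236 FPKM (log2 1.25), and COX7C, of cytochrome oxidase, rose from 34.4 to 95.8 FPKM (log2 1.45). The genes of the tricarboxylic acid cycle gave 5 higher and none lower of 23 (median 0.39). Fumarase (FH) was at 59.4 and 76.1 FPKM (log2 0.35). Mitochondrial ribosomal proteins gave 20 higher and none lower of 76 (median 0.44; 0.17 in the input RNA against si-NC). MRPL34 was at 3.82 FPKM in si-NC and 17.1 in si-LY6E-DT, with 23.1 in the library labelled si-HNRNPC and 8.15 in the input (log2 2.32), so its si-NC value lay below the other 3. MRPS11 (3.102, 3.26, 10.5 and 3.21 FPKM in that order) was high in the labelled library alone. Import and chaperone genes gave 7 higher and none lower of 30 (median 0.42). TOMM22, the central import receptor, rose from 23.5 to 71.4 FPKM (log2 1.56). TOMM6, another part of the import pore, rose from 8.11 to 244 FPKM (log2 4.75) but shares exons and was at 215 FPKM in si-LY6E-DT. Of 25 glycolysis genes 1 rose and 4 fell. LDHA, lactate dehydrogenase, fell from 312 to 100.1 FPKM (log2 −1.63), the glucose transporter SLC2A1 fell from 82.6 to 32.7 FPKM (log2 −1.31) and its relative SLC2A3 rose from 1.61 to 11.2 FPKM (log2 2.23). GAPDH (from 609.7 to 975 FPKM, log2 0.68) and ENO1 (from 555 to 539.8 FPKM, log2 −0.04), central enzymes of the pathway, did not reach 2-fold, and the median of the list, 0.13, turned to −0.06 after rescaling and −0.08 after quantile normalization.

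Lists of protein quality control differed, set beside 12.4% of all genes tested that rose and 9.44% that fell. Of 46 proteasome genes 11 rose and 2 fell (median 0.598; 0.19 in the input RNA against si-NC). PSMB6, a catalytic subunit, rose from 42.4 to 150.01 FPKM (log2 1.8003), ADRM1, a ubiquitin receptor, rose from 77.3 to 201 FPKM (log2 1.37), and PSMD11, of the lid, rose from 21.8 to 56.1 FPKM (log2 1.32). The input held PSMD11 at 23.2 FPKM, near si-NC. PSMB9, the immunoproteasome subunit induced by interferon gamma, fell from 10.7 to 1.23 FPKM (log2 −2.38), and PSME4, an alternative cap, fell from 13.2 to 5.43 FPKM (log2 −1.14). Chaperones of the cytosol gave 6 higher and none lower of 32 (median 0.39). AHSA1, the activator of HSP90, rose from 41.7 to 129 FPKM (log2 1.601), DNAJB1, a partner of HSP70, rose from 30.3 to 81.2 FPKM (log2 1.39), and HSPA1B rose from 58.8 to 168 FPKM (log2 1.499), though it is near-identical to HSPA1A. HSP90AB1 (from 786 to 969.9 FPKM, log2 0.304) and HSPA8 (from 292 to 359.8 FPKM, log2 0.299), the constitutive forms, did not reach 2-fold. In the endoplasmic reticulum 7 of 51 genes rose (13.7%) and 4 fell (7.84%), near the shares of all genes tested. The median of 0.11 turned to −0.06 after rescaling and −0.02 after quantile normalization. DAD1, of the glycosylation complex, rose from 30.5 to 114 FPKM (log2 1.87), SEC61A1, the translocation channel, rose from 19.7 to 52.7 FPKM (log2 1.38), and the chaperones HSP90B1 and CANX fell from 213 to 58.4 FPKM (log2 −1.85) and from 207 to 64.96 FPKM (log2 −1.66). HSP90B1 was at 234 FPKM in the input RNA, near si-NC, so that its low value belonged to the labelled library.

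Lysosomal genes were among the lists with most members higher, 39.1% against 12.4% of all genes tested. Of all genes tested 9.44% fell. Of 46 measured 18 rose and 1 fell (median 0.76; 0.34 in the input RNA against si-NC). Subunits of the proton pump that acidifies lysosomes rose, ATP6V1F from 30.8 to 181 FPKM (log2 2.52), ATP6V1B2 from 7.69 to 37.7 FPKM (log2 2.16) and ATP6V0B from 6.44 to 28.9 FPKM (log2 2.005). NEU1, a sialidase, rose from 8.56 to 33.7 FPKM (log2 1.86). In the input ATP6V1B2 was at 12.4 FPKM, ATP6V0B at 10.04 and NEU1 at 10.2, closer to si-NC than to the labelled library, while LAMP1, a membrane protein of lysosomes that rose from 19.3 to 57.5 FPKM (log2 1.53), was at 60.6. Rab GTPases, which direct vesicle traffic, gave 8 higher and 2 lower of 34 (median 0.598; 0.18 in the input against si-NC). RAB7A, of late endosomes, rose from 61.4 to 238 FPKM (log2 1.94) and was at 175 in the input. RAB35, of recycling to the surface, rose from 11.1 to 41.4 FPKM (log2 1.81) and was at 16.4. RAB32, of lysosome-related organelles, rose from 28.7 to 173 FPKM (log2 2.55) with 21.4 FPKM in the input, and RAB8B fell from 10.8 to 1.38 FPKM (log2 −2.31) with 11.3 in the input, so neither differed in that direction there.

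Translation genes were near or below the control, and among all genes tested 12.4% rose and 9.44% fell. Of 79 cytosolic ribosomal protein genes 5 rose and 3 fell (median −0.25; −0.04 in the input RNA against si-NC). RPL29 rose from 28.6 to 172 FPKM (log2 2.55) and RPS15 from 29.6 to 117 FPKM (log2 1.94), both also high in the input, at 135 and 125 FPKM. RPS6, a target of S6 kinase, fell from 355 to 148 FPKM (log2 −1.26), and RPS12 was at 666 and 775 FPKM (log2 0.22). Ribosomal protein genes have many processed pseudogene copies, so reads may have been divided among them. Of 48 initiation and elongation factors 4 rose and 7 fell (median −0.17). EIF3A, a scaffold subunit of EIF3, fell from 148 to 50.3 FPKM (log2 −1.54), EIF2S3, of the ternary complex, fell from 102 to 35.5 FPKM (log2 −1.501), and PABPC1, which binds poly(A) tails, fell from 279 to 101 FPKM (log2 −1.46). EEF2, the translocase, was at 362 and 367 FPKM (log2 0.02). Of 40 aminoacyl-tRNA synthetases 1 rose and 4 fell (median −0.29), and of 57 ribosome biogenesis genes 3 rose and 5 fell (median −0.105). NOP10, of the pseudouridylation particles, rose from 73.7 to 302 FPKM (log2 2.02), and GNL3, nucleostemin, fell from 72.7 to 24.8 FPKM (log2 −1.51). Transporters of amino acids, sugars and ions gave 4 higher and 8 lower of 38 (median −0.11). The zinc importers SLC39A6 and SLC39A10 fell from 29.1 to 7.200 FPKM (log2 −1.88) and from 14.4 to 4.26 FPKM (log2 −1.55).

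Stress lists were set beside the 12.4% of all genes that rose and the 9.44% that fell. Of 34 measured ATF4 targets 9 rose and 2 fell (median 0.31; 0.33 in si-LY6E-DT and 0.07 in the input RNA against si-NC). SHMT2, the mitochondrial serine enzyme, rose from 21.4 to 58.1 FPKM (log2 1.397), PPP1R15A, which ends the block on translation, rose from 54.6 to 127 FPKM (log2 1.205), and SLC1A5, a glutamine carrier, rose from 26.5 to 64.3 FPKM (log2 1.25). In si-LY6E-DT the last 2 were at 126 and 59.8 FPKM, so that si-NC was the low library. ATF4 itself was at 119 and 96.3 FPKM (log2 −0.299). Of 39 NRF2 targets and redox genes 9 rose and 2 fell (median 0.42). GSR, glutathione reductase, rose from 12.7 to 51.4 FPKM (log2 1.93), NQO1, a quinone reductase, rose from 41.8 to 91.5 FPKM (log2 1.11), and FTL, the ferritin light chain, rose from 1219 to 4262 FPKM (log2 1.81). GCLM, of glutathione synthesis, fell from 13.4 to 4.53 FPKM (log2 −1.38), and thioredoxin (TXN) was at 386 and 417 FPKM (log2 0.11). Of 29 p53 targets 2 rose and 2 fell (median 0.23). BAX, the pore-forming death protein, rose from 24.9 to 69.1 FPKM (log2 1.44) and BBC3, PUMA, from 1.25 to 5.95 FPKM (log2 1.63), while GADD45A, a growth arrest gene, fell from 55.2 to 9.21 FPKM (log2 −2.46) and CCNG1 from 15.6 to 3.72 FPKM (log2 −1.82). CDKN1A, the p21 inhibitor, was at 19.7 and 31.9 FPKM (log2 0.67) and at 1.48 FPKM in the input. Of 19 measured S100, annexin and metallothionein genes 7 rose and none fell (median 0.76; 0.76 in the input RNA against si-NC). The calcium-binding proteins S100A11 and S100A16 rose from 88.00 to 614 FPKM (log2 2.79) and from 45.2 to 194 FPKM (log2 2.08), with 709 and 84.5 FPKM in the input. Of 39 genes in a list of cancer-testis genes and their relatives 7 were measured. Of these 4 rose and none fell (median 1.28, and −0.27 with the input RNA as control). The risers were CT83 (from 1.53 to 12.6 FPKM, log2 2.43), XAGE1A (from 28.98 to 71.97 FPKM, log2 1.28) and SPANXB1, given above. The other was MAGED1 (from 3.601 to 15.6 FPKM, log2 1.85), a relative in the MAGE family.

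The labelled cell line was checked on its markers, beside the 12.4% of all genes tested that rose and the 9.44% that fell. Of 18 measured of 22 basal and mesenchymal genes of MDA-MB-231 none rose and 6 fell (median −0.12). Vimentin (VIM), the mesenchymal filament, was at 243 FPKM in si-NC and 286 in si-LY6E-DT, with 382 in the library labelled si-HNRNPC and 538 in the input RNA, and galectin-1 (LGALS1) was at 271, 257, 269.9 and 253. Both were abundant in all 4 libraries. Caveolins fell, CAV1 from 101 to 43.4 FPKM (log2 −1.203) and CAV2 from 22.01 to 6.82 FPKM (log2 −1.56), with 8.12 and 1.13 FPKM in the input, and the transcription factor SNAI2 fell from 30.00 to 4.73 FPKM (log2 −2.44), with 2.34 in the input. Of 9 measured of 21 luminal genes 1 rose and 3 fell (median −0.32). KRT19 fell from 85.05 to 9.58 FPKM (log2 −3.02), CLDN4 from 13.4 to 1.303 FPKM (log2 −2.65) and KRT8 from 33.5 to 11.96 FPKM (log2 −1.41), and CLDN7, which shares exons, rose from 2.57 to 12.98 FPKM (log2 1.97). The luminal genes ESR1, PGR, CDH1, TFF1, TFF3 and AGR2 are in none of the 5 tables, while 15 of the 21 are in at least 1. Of 4 measured genes that mark the HeLa, HEK293 and MCF-7 lines, KRT7 among them, 1 fell and none rose (median −0.24). KRT7, a keratin of simple epithelia, was at 129 FPKM in si-NC and 140.2 in si-LY6E-DT, with 13.7 in the library labelled si-HNRNPC and 13.8 in the input.

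Some markers of other cell types were higher in the library labelled si-HNRNPC. Of 15 leukocyte genes 2 were measured and both rose, LCP1, the bundling protein of leukocyte actin, from 4.96 to 95.4 FPKM (log2 4.02), and CD68, a lysosomal protein of macrophages, from 4.86 to 74.8 FPKM (log2 3.69). Others went the other way. CD74, also of this list, was at 21.7 FPKM in si-NC and 0.602 in the input RNA, and is not listed for the labelled library. Of the 4 members tested in the input RNA against si-NC, 2 were higher and 2 lower. The listed members of that list summed to 43.9 FPKM in si-NC, 171 in the labelled library and 104 in the input RNA. The leukocyte genes PTPRC, CD3E, SPI1 and ITGAM are in none of the tables, while 7 of the 15 are in at least 1. Of 12 endothelial genes ESAM, a junction protein, was the measured one and rose from 2.08 to 46.6 FPKM (log2 3.95); the listed members summed to 2.08, 49.4 and 58.6 FPKM in the same order, and PECAM1, CDH5 and VWF are in no table. The fibroblast list had 1 measured member of 13, S100A4, at 55.1 and 59.5 FPKM (log2 0.11).

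The change of a gene went with the length of its transcript. Transcript features were taken from GENCODE 29 for 10175 of the genes tested. With the genes in 10 equal bins of length, in the shortest bin, of 207 to 1203 bases, 25.5% of genes rose and 5.30% fell (median 0.45), and in the longest bin, of 6899 to 34526 bases, 4.22% rose and 19.1% fell (median −0.37). Spearman's rho of change and length was −0.30 across genes when the library labelled si-HNRNPC was set against si-NC, −0.32 in the input RNA against si-NC and 0.03 in si-LY6E-DT against si-NC. These values describe genes that share a library, so no p is given. With GC content rho was 0.31 in the labelled library, 0.07 in the input and 0.38 in si-LY6E-DT. In 3 bins of length by 3 of GC content, the long transcripts of low GC content had a median of −0.41 and the short ones of high GC content 0.50. Runs of 5 U per kilobase of 3′ UTR, the kind of stretch HNRNPC binds, gave a rho of −0.15 in the labelled library, −0.03 in the input and −0.18 in si-LY6E-DT. RNA quality is not given in the sources used here, and its part in the relation with length was not tested.

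**Figure D4:**
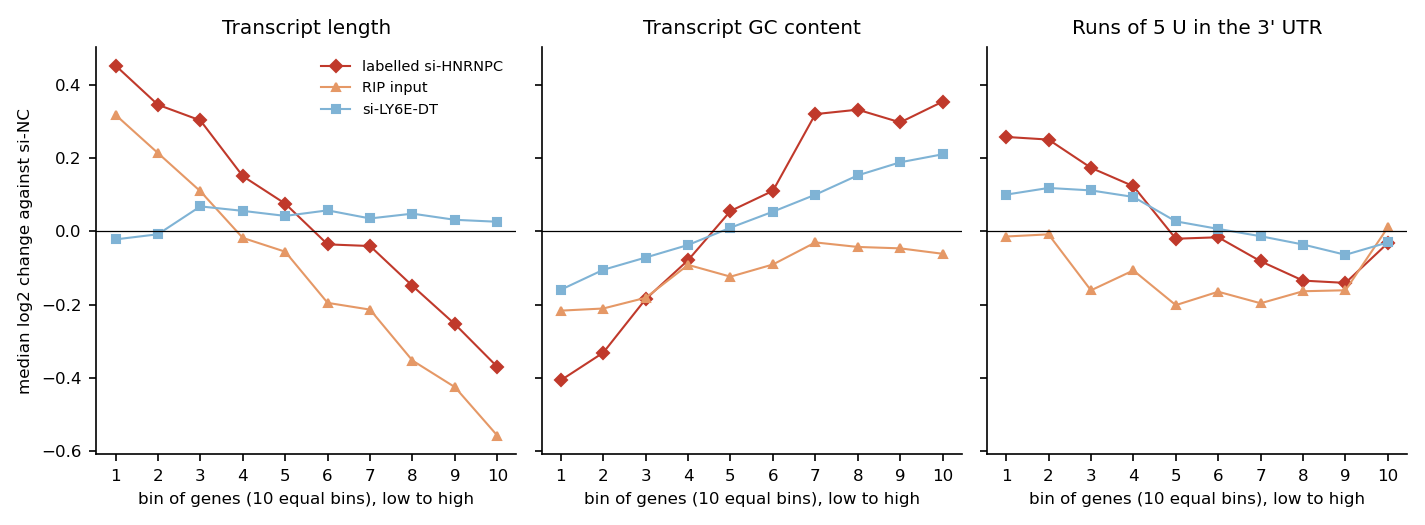
Median log2 change against si-NC in 10 equal bins of genes ordered by transcript length, GC content and runs of 5 U per kilobase of 3′ UTR (left to right), for the library labelled si-HNRNPC, the input RNA and si-LY6E-DT. The line of the labelled library falls with length from 0.45 to −0.37, that of the input falls alongside it, and that of si-LY6E-DT is flat.

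Changes also differed by chromosome. On chromosome 16, 23.5% of 476 genes rose and 4.202% fell, and on chromosome 22, 16.7% of 240 rose and 2.08% fell, against 12.4% and 9.44% of all genes tested. Genes of these chromosomes are rich in GC, with medians of 56.3% and 57.4% against 49.0% for all. On chromosome 7, 4.74% of 464 genes rose and 18.3% fell (median −0.33), and on chromosome 21, 3.03% of 99 rose and 22.2% fell (median −0.33). Their median GC contents were 48.4% and 48.9%, and their median transcript lengths 3000 and 3256 bases, against 3021 for all genes. On chromosome 18, 6.06% of 132 genes rose and 19.7% fell, at a median GC content of 44.0% and a median length of 3879.5 bases. On chromosome 10 19.2% of 416 genes rose at a median GC content of 45.6%. In the input RNA against si-NC the medians were −0.42 for chromosome 7, −0.44 for chromosome 21, 0.08 for chromosome 10 and 0.08 for chromosome 16. In si-LY6E-DT against si-NC they were 0.04, −0.01, 0.02 and 0.11. Chromosome copy number was not measured here, and the part of GC content and length in these differences was not tested.

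**Figure D5:**
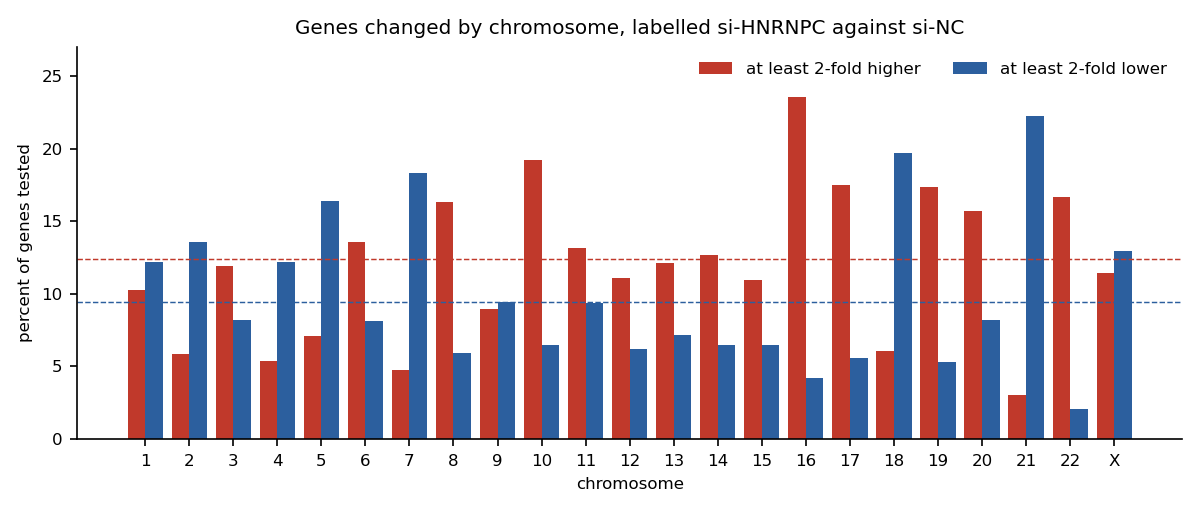
Percent of the genes tested on each chromosome that were at least 2-fold higher (red) or lower (blue) in the library labelled si-HNRNPC than in si-NC, with dashed lines at the 12.4% and 9.44% of all genes. Chromosomes 10 and 16 have the tallest bars for genes that rose and chromosomes 7, 18 and 21 for genes that fell.

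The changes were also set beside the binding readout. Of 9653 genes measured in both, the 2238 at least 2-fold enriched in the HNRNPC immunoprecipitate over its input had a median change of −0.19, with 7.02% higher and 12.7% lower. The 3667 depleted genes had a median of 0.31, with 19.1% higher and 5.59% lower, and all 9653 had 0.06, 12.96% and 9.10%. Spearman's rho of change and enrichment across these genes was −0.26. Enriched genes had longer transcripts (median 4805 bases) than depleted ones (2050 bases), a lower GC content (42.0% against 55.9%) and more runs of 5 U (9.68 against 1.87 per kilobase of 3′ UTR). The enrichment is measured over the input RNA, whose levels lay near those of the labelled library for genes such as SPANXB1 and THBS1. A gene high in both is set towards depletion and a gene low in both towards enrichment, whatever its binding. The part of this, of length and of GC content in the relation was not tested. No library of an IgG precipitation was analysed here.

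Some genes are listed for only 1 of the 2 libraries and have no change. The table labelled si-HNRNPC lists 419 genes that the si-NC table does not, with a median of 0.802 FPKM, 8 of them at 10 FPKM or more. Of these SPARC, a collagen-binding matrix protein, was at 37.8 FPKM and at 31.5 in the input RNA, and SIGLEC15, an immune lectin, was at 18.7 and 12.3. SERPINB2, an inhibitor of urokinase that shares exons with a neighbour, was highest at 66.8 and 63.6. The si-NC table lists 808 genes that the other does not, with a median of 0.626 FPKM, 20 of them at 10 FPKM or more. PMEPA1, a brake on TGF-beta signals, was at 36.3 FPKM in si-NC, 49.7 in si-LY6E-DT and 0.715 in the input, and EFEMP1, a fibulin of elastic matrix, was at 27.8, 34.3 and 1.68. CD74, the invariant chain of MHC class II, was at 21.7, 25.96 and 0.602 FPKM. The highest of all, 152 FPKM for the unnamed coding gene AC005258.1, was at 0.9496 in si-LY6E-DT and shares exons, so its value is uncertain.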

How the data were processed

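Gene expression was taken from 1 table of FPKM per gene for each of the 5 libraries, as the authors deposited them, the unit being given per the file headers. The build GRCh37 and the tools StringTie 1.3.3, HISAT2 2.1.0, cutadapt 1.17 and FastQC 0.11.7 come from the submitters' processing notes, which give no roles or settings here; filters on the listed genes are not given in the sources used here. No steps of whole reads were found among low values. The depth is therefore unknown, no count test was used and no counting interval is given. Stripped of their version, gene IDs were matched to GENCODE 29 (12408 of 12497 rows, 12394 of them protein-coding), whose positions are on GRCh38. No coordinates were converted. FPKM depends on what abundant genes take of the library total and on how reads are divided among overlapping gene models.

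The change was log2((FPKM + 1)/(si-NC FPKM + 1)) for genes listed in both tables with a mean FPKM of at least 1, and a 2-fold change was the rule of size for a rise or fall. With 1 library a group there is no SD, SE or p-value. Both tables list 10887 genes, and 640 of these were below the filter. Transcript length, GC content and U runs came from GENCODE 29, and promoters from RefSeq (GRCh38.p14). The alternatives tried were a pseudocount of 0.1 or 5, a minimum mean of 5 FPKM or none, quantile normalization, rescaling, other control libraries, leaving out genes that share exons, and thresholds of 1.5-fold and 4-fold.

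The members, the gene lists and the alternatives were chosen with earlier results of these data known. The rule named HNRNPC, the 25 largest rises and 25 largest falls with a mean FPKM of at least 5 and no shared exons, up to 4 changed and 3 abundant unchanged members of each list, and the 5 highest genes listed for 1 library only. Of 230 genes named, 59 fall outside it and were chosen after their values were seen: ADAM10, ADAM8, AGRN, ASPM, ATP5B, ATP6V0B, BRAF, CALD1, CANX, CD151, CD74, COL12A1, COL18A1, COL4A2, CSF2, CSF3, CTSD, CTSL, CXCL8, DHCR7, F3, FADS1, FTL, GCLM, HMGCS1, HMMR, ID1, IDI1, IFI44, IFIH1, IFIT1, IFIT3, IFITM1, IFITM3, IL18, ITGA3, ITGAV, KIF20B, LAMP1, MCM6, MRPS11, MYH9, MYL12A, NEU1, NQO1, NSDHL, PPP1R15A, PRKDC, PSME4, RAB35, RPS6, SEC61A1, SHMT2, SLC1A5, SLC39A10, TGFB2, TIMP3, TOP2A and TPM1. Some genes of the lists and of the rule are not reported here. Computations ran in pandas 2.3.3 and numpy 2.4.6 under Python 3.11.15, with figures from matplotlib 3.10.9, and were checked on simulated data.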

Additional observations from a re-analysis of the deposited data

How the results depend on the processing

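No paired analysis was possible because each group has 1 library. No replicate gives a spread, so counts are called moved where they differed by more than 1.5 times and log2 values where they differed by at least 1.5-fold (0.585). The 1275 higher and 967 lower genes became 618 and 324 with a pseudocount of 5, 2604 and 2131 at 1.5-fold, and 176 and 98 at 4-fold. A mean FPKM of at least 5 left 634 lower genes, and the input RNA as control left 410. Under the other alternatives both counts stayed within 1.5 times, between 938 and 1636 higher and between 857 and 1377 lower. The log2 change of HNRNPC and the median of all genes moved under none of the alternatives run. For HNRNPC it was −0.35 after quantile normalization, −0.29 after rescaling and −0.46 with the input RNA as control. With si-LY6E-DT as control the change of HNRNPC turned to 0.28.

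Of the 220 named genes listed in both tables and tested, none moved under quantile normalization, rescaling, no filter, the filter of 5 or without genes that share exons, where they were still tested, and none of those that had risen or fallen changed sign there. Of the genes under 2-fold, 4 turned under quantile normalization and under rescaling, EEF2 to −0.19 and −0.18, ITGB1 to −0.064 and −0.12, S100A4 to −0.17 and −0.086 and TXN to −0.074 and −0.085, and 7 turned with si-LY6E-DT and 13 with the input RNA as control. The 7 leave out HNRNPC, whose turn with si-LY6E-DT as control is given above. A pseudocount of 5 moved 55, one of 0.1 moved 19, and si-LY6E-DT as control moved 34 and turned DAG1 to −0.31. With the input RNA as control 98 moved, 55 did not and 61 that had risen or fallen turned, and the cause was not tested. On the log2 scale against that input the genes that had risen against si-NC were ADAM8 −0.13, APBB1IP −0.047, CD9 −0.39, CLDN7 −1.16, CSF3 −0.17, CT83 −0.78, CTSL −0.024, DUSP4 −0.29, DUSP5 −0.35, EMP1 −0.42, ESAM −0.17, FADS1 −0.47, HIST1H2BD −0.51, HMGCS1 −0.19, HMGN5 −1.32, HNRNPH2 −0.0018, IFITM1 −2.47, IFITM2 −0.97, IFITM3 −0.52, IL18 −0.087, IL1B −1.97, LAMP1 −0.075, MAGED1 −0.63, MAPK3 −0.14, MYL12A −0.27, RPS15 −0.098, S100A11 −0.21, SCD −0.36, SPANXB1 −0.53 and TIMP3 −0.54. Those that had fallen against si-NC were ADAM9 1.23, AGRN 0.70, BRAF 0.24, CAV1 2.28, CAV2 1.88, CCNG1 0.095, COL12A1 1.13, COL4A2 0.52, CPT1A 0.99, CSF2 1.15, EIF2S3 0.39, F3 0.029, FN1 0.15, ITGA3 0.53, ITGAV 0.48, LDHA 0.53, LIMCH1 0.43, LRIG1 0.047, MCM6 0.069, MYH9 0.26, PLIN2 0.47, PRKDC 0.57, PSME4 0.34, PTBP3 2.42, SLC2A1 0.20, SLC39A6 0.24, SMG1 0.60, SNAI2 0.78, TGFA 0.41, TGFB2 0.57 and TPM1 1.22. Medians of lists that moved with the input RNA as control were those of matrix (−0.16), spindle (−0.0029), cancer-testis (−0.27), histone (0.35) and S100 (−0.13) genes and the fibroblast (−1.12), leukocyte (0.80) and endothelial (−0.48) lists, of 1 or 2 measured members. Without moving as far, that control turned the medians of HNRNPC relatives (−0.22), reported HNRNPC targets (0.104), decay (0.082), proteases (−0.017), integrins (0.22), the EGF receptor family (0.047), cytokines (−0.15), synthetases (0.11), endoplasmic reticulum (−0.24), repair (0.19), ribosome biogenesis (0.25), translation factors (0.26), spliceosome (−0.00040), transporters (0.29), YAP/TAZ and TGF-beta targets (0.25) and basal markers (0.095). The filter of 5 moved the medians of histone genes to 1.96 and of other cell lines' markers to −1.61 and turned those of reported targets (0.11) and transporters (0.21), and a pseudocount of 5 moved the leukocyte (3.18) and endothelial (2.87) lists. With si-LY6E-DT as control the medians of reported targets (0.041), export (−0.0067), cytokines (−0.23), fatty acid (−0.019), hnRNP (0.097) and m6A (−0.16) genes turned. Without genes that share exons the median of transporters was 0.023, and with no filter that of fatty acid genes was −0.00051. Depth being unknown, the precision of genes at low FPKM cannot be stated.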
